A study of Mus musculus with 12 samples.

Results

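The genes described here are 7 markers linked to regenerating, fetal-like gut epithelium, namely Plet1, Ly6a, Clu, Anxa1, Anxa3, Ccn1 and Ccn2. They were taken by symbol from an expression table of 17734 genes, in which all 7 were found, and Cyr61 and Ctgf are the older names of Ccn1 and Ccn2. Plet1 was selected on these data, after its large rise in colitis was seen. Its differences with colitis, without or with BBR, are therefore given as a description only. The other 6 genes have a known link to epithelial repair.

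The samples were whole rectal tissue of 12 adult male C57BL/6 mice, with 3 mice in each of 4 groups on day 7. Normal mice received neither agent. Colitis mice drank 2.5% dextran sulfate sodium (DSS), a polymer that injures the bowel lining, for 7 days. In the other 2 groups, normal or colitis mice were gavaged with berberine (BBR), a plant alkaloid, at 100 mg/kg, for 6 days by the labels and from day 1 to 7 by the methods. The labels call the tissue colorectum and the methods call it rectal. The labels name no genetic change in any group, and chemical injury of the lining is the disease model.

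When the colon lining is injured, the cells that close the wound switch off much of the adult crypt programme and turn on genes last used in the fetal gut. Ly6a (Sca-1) marks such cells in the colon, Clu marks a rare reserve stem cell that appears after damage, and the annexins and CCN proteins accompany the repair. The programme is tied to YAP, a co-activator that is held in the cytoplasm by the Hippo kinases and otherwise binds TEAD factors on DNA, with Ccn1 and Ccn2 as its textbook targets.

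The promoters of the members are printed because the YAP partner TEAD reads a short word of DNA. A window of 300 bases, 250 before and 50 after the gene's start, was listed for 3 of the 7 members in the RefSeq table (build GRCm38.p6), each written 5′ to 3′ along the gene, with the TEAD word in capitals. Plet1 lies on the forward strand at chr9:50494275-50494574, Anxa1 on the reverse strand at chr19:20390622-20390921, and Ccn1 on the reverse strand at chr3:145649936-145650235.
Plet1: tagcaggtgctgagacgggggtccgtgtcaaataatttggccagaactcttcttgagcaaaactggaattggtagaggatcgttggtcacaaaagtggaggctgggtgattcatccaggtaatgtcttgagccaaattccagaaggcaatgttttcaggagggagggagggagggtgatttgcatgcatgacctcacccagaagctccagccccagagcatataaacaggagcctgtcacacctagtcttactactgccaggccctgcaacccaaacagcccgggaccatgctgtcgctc
Anxa1: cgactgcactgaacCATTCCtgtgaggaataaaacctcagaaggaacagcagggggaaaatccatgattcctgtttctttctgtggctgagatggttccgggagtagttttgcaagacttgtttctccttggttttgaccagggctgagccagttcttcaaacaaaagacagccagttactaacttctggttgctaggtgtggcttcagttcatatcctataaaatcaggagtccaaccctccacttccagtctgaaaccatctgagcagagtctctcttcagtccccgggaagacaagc
Ccn1: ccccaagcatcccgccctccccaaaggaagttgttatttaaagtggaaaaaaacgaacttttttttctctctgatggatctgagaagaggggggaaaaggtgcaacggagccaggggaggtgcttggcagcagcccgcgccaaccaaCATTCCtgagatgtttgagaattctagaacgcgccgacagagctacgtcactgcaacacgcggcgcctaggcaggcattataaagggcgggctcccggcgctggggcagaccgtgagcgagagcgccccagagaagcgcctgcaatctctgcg
The letters searched on both strands were GGAATG for TEAD, TGANTCA for AP-1, a factor pair of injury and growth signals, and TTCNNNGAA for STAT factors. The TEAD word, on the opposite strand and so printed as CATTCC, stood at base -236 of Anxa1 and at base -103 of Ccn1, counted from the start of the gene. The window of Plet1 held an AP-1 word, tgattca, at base -144 and no TEAD word. No STAT word stood in the 3 windows, and no matches overlapped. Of all 32851 promoter windows, 14.7% held the TEAD word, 7.81% the AP-1 word and 8.3% the STAT word. A match of this kind is a description of letters and not a site of binding.

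Values are FPKM, a read count scaled for the length of the transcript and for the depth of the library, and differences are between means of log2(FPKM + 0.1), a scale that understates the change of low genes. They were fitted with limma, a linear model with a spread shared across genes, over 15315 genes with a mean of at least 0.1, and adjusted p-values are Benjamini-Hochberg values over all these genes with a limit of 0.05. All 7 members passed this filter. The 4 mice numbered 4, which are 1 of the 3 mice in each group, stood apart from the other 8, with column totals of 482194 to 504337 against 696286 to 765876 and fewer genes at 0, 872 to 1086 against 1332 to 1926. Member differences are therefore also given for the mice numbered 1 to 3 and the mice numbered 4 apart. No read counts were used, but the steps between low values put the worth of 3 reads on Plet1 at 0.0925 to 0.145 FPKM, below its lowest value of 0.55. Such a floor covers counting error only.

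In normal mice the members spanned a wide range of levels. Ly6a, which encodes a lipid-anchored surface protein, had the highest mean, 480.3 ± 173 FPKM (SD, n = 3), ahead of Anxa3 at 204.5 ± 44.2 and Anxa1 at 174.3 ± 66.6, which overlapped each other. Clu was at 18.4 ± 9.77, Ccn2 at 13.4 ± 4.88 and Ccn1 at 7.21 ± 5.01 FPKM, and these 3 genes overlapped as well. Plet1 was the lowest, at 0.827 ± 0.188 FPKM.

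Plet1, a surface protein of placental and skin progenitor cells, was barely expressed in all mice without DSS. It was at 1.03, 0.79 and 0.66 FPKM in normal mice 1, 3 and 4 and at 0.68, 0.55 and 0.61 FPKM in normal mice 1, 3 and 4 receiving BBR. In colitis mice 1, 2 and 4 it stood at 690.2, 492.7 and 175.1 FPKM, and in colitis mice 2, 3 and 4 receiving BBR at 13.7, 442.6 and 2.32 FPKM. Every colitis mouse, with or without BBR, was above every mouse without DSS, and the colitis mice receiving BBR were split, with mouse 3 inside the range of untreated colitis mice and mice 2 and 4 far under it. The colitis and normal groups, on which the gene was chosen, were 8.74 log2 units apart, 9.18 in the mice numbered 1 to 3 and 7.85 in the mice numbered 4.

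**Figure D1:**
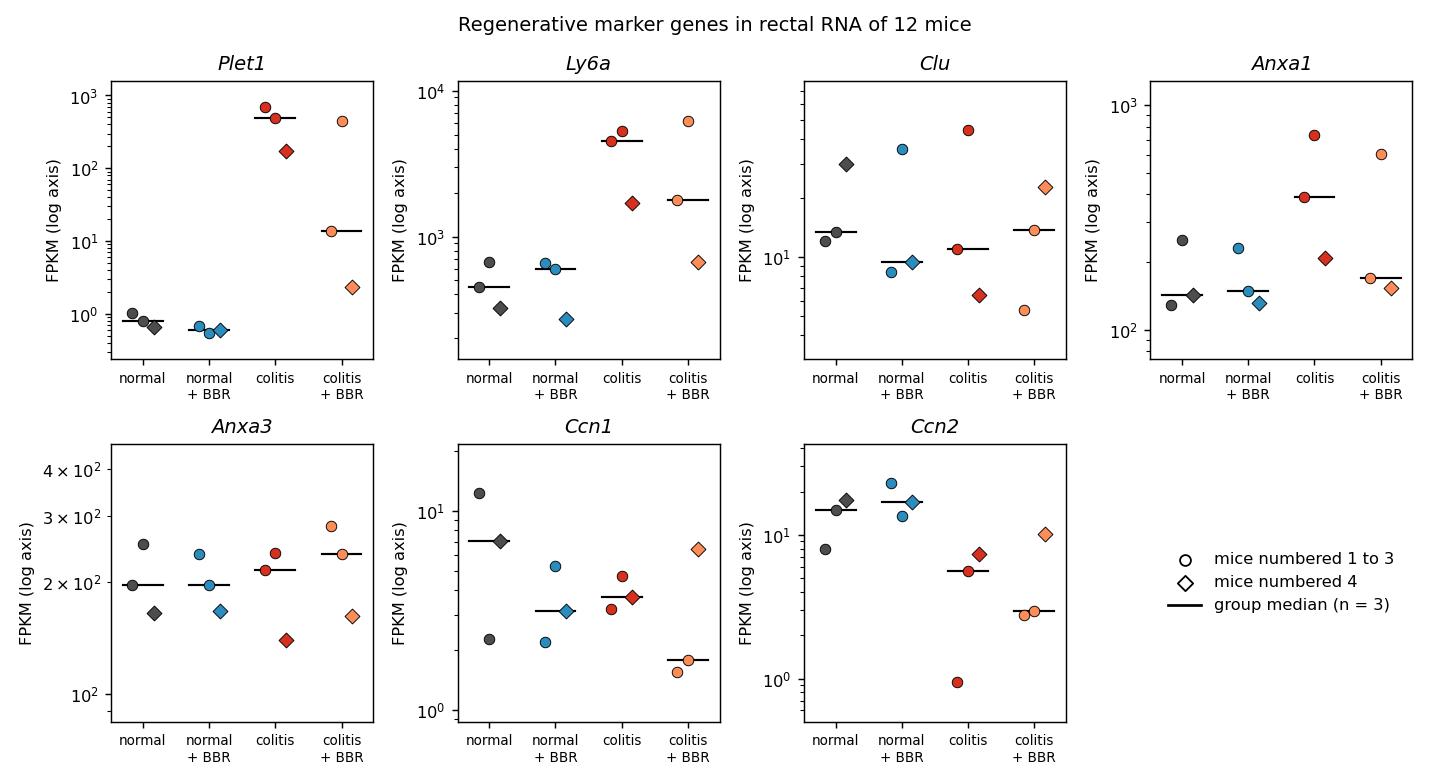
FPKM (log axis) of each member in each of the 12 mice by group, with diamonds for the mice numbered 4 and bars for the group median. Plet1 and Ly6a of every colitis mouse sit above every mouse of the matching control group, Ccn2 sits below, and Anxa3 stays between 139.9 and 282.5 FPKM in all mice.

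Among mice receiving BBR, Plet1 was 5.11 log2 units higher with colitis. That is a 34.5-fold difference without overlap of the 3 and 3 mice, and a gap without overlap in this direction was seen in 2.26% of all genes. Plet1 was chosen for its rise in colitis, and whether these mice were left out of that choice is not stated. No test is therefore given. The difference was 6.78 in the mice numbered 1 to 3 and 1.77 in the mice numbered 4. Without colitis mouse 3 receiving BBR it was 3.02, and without colitis mouse 4 receiving BBR it was 6.78. Reads of Plet1 can be shared with Plet1os, a gene that overlaps it on the other strand: 9.85% of the 50-base windows of the Plet1 transcripts also occur in transcripts of other genes. Whether the counting used strand is not given in the sources used here.

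Ly6a was higher in colitis in both arms of the study, that is without and with BBR. Its values were 453.2, 665.2 and 322.7 FPKM in normal mice 1, 3 and 4 and 4541, 5312 and 1693 FPKM in colitis mice 1, 2 and 4. With BBR they were 660.6, 597.4 and 270.1 FPKM in normal mice 1, 3 and 4 and 1772, 6231 and 665.2 FPKM in colitis mice 2, 3 and 4. All 3 colitis mice of each arm were above the 3 controls of that arm, although colitis mouse 4 receiving BBR was only just above its highest control. Averaged over both arms Ly6a rose by 2.47 log2 units (standard error 0.53, 95% interval 1.32 to 3.62), or 5.54-fold, and passed the limit (limma adjusted p = 0.0212, exact permutation within arms p = 0.005, the smallest this design can give).

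Within a single arm the rise of Ly6a did not reach the adjusted limit in the main fit. It was 2.90 (standard error 0.74, limma adjusted p = 0.0750) without BBR and 2.04 (standard error 0.74, limma adjusted p = 0.220) with BBR. With the replicate number as a block, the difference without BBR was 3.15 and passed (limma adjusted p = 0.0152). The difference with BBR passed with a block for the mice numbered 4 and, at 2.40, in the mice numbered 1 to 3 alone. The mice numbered 1 to 3 gave a mean difference of 2.78 over both arms and the mice numbered 4 one of 1.85. The averaged call was lost without normal mouse 1 (limma adjusted p = 0.0563), without colitis mouse 1 (limma adjusted p = 0.051) and without normal mouse 4 receiving BBR (limma adjusted p = 0.0507), with the difference between 2.05 and 2.86 over all 12 such fits. Reads of Ly6a can be split with close relatives, since 19.0% of its 50-base windows recur in other genes, 15.0% in Ly6c1 alone.

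Clu, the secreted chaperone clusterin, showed no difference that exceeded the spread between mice. It was at 12.1, 13.5 and 29.7 FPKM in normal mice 1, 3 and 4, at 10.99, 44.4 and 6.40 FPKM in colitis mice 1, 2 and 4, at 8.43, 35.7 and 9.47 FPKM in normal mice 1, 3 and 4 receiving BBR, and at 5.38, 13.7 and 22.9 FPKM in colitis mice 2, 3 and 4 receiving BBR. All 4 groups overlapped, and the highest single value, in colitis mouse 2, was followed by normal mouse 3 receiving BBR. The difference averaged over arms was -0.23 log2 units (95% interval -1.41 to 0.96, limma adjusted p = 0.762), and it changed sign with quantile normalization and with centring on the median. The mice numbered 1 to 3 and the mice numbered 4 went opposite ways in each arm, with differences of 0.79 and -2.20 without BBR and of -1.01 and 1.26 with BBR.

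Anxa1, which encodes a calcium-dependent membrane-binding protein that acts on formyl peptide receptors in the resolution of inflammation, was at 129.1, 250.7 and 143.1 FPKM in normal mice 1, 3 and 4. It stood at 390.9, 733.0 and 208.0 FPKM in colitis mice 1, 2 and 4, where only mouse 4 fell inside the normal range. With BBR it was at 230.7, 149.2 and 131.2 FPKM in normal mice 1, 3 and 4 and at 170.3, 607.8 and 153.1 FPKM in colitis mice 2, 3 and 4, so that only colitis mouse 3 was above its controls. The difference averaged over arms was 0.92 log2 units (standard error 0.40, 95% interval 0.051 to 1.78) and did not pass the limit (limma adjusted p = 0.113, exact permutation within arms p = 0.07). It was 1.18 in the mice numbered 1 to 3 and 0.38 in the mice numbered 4. Of the 12 fits without 1 mouse, it was lowest without colitis mouse 3 receiving BBR, at 0.60 (limma adjusted p = 0.233), and passed only without colitis mouse 4, at 1.14 (limma adjusted p = 0.0489).

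Anxa3, another annexin of the membrane-binding family, was the most even of the 7 genes. Its group means were 204.5 ± 44.2 FPKM in normal mice, 199.9 ± 34.9 in normal mice receiving BBR, 197.6 ± 51.3 in colitis mice and 226.9 ± 61.1 in colitis mice receiving BBR (SD, n = 3 each). The groups overlapped, and the mouse numbered 4 was the lowest of each group, at 139.9 to 167.2 FPKM. The difference averaged over arms was 0.048 log2 units, with a 95% interval of -0.40 to 0.49 (limma adjusted p = 0.870). It was 0.14 in the mice numbered 1 to 3 and -0.14 in the mice numbered 4.

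Ccn1 and Ccn2, secreted matrix-associated proteins, did not follow Plet1 and Ly6a upward. Ccn1 was at 12.3, 2.27 and 7.08 FPKM in normal mice 1, 3 and 4, at 3.21, 4.71 and 3.72 FPKM in colitis mice 1, 2 and 4, at 2.2, 5.31 and 3.14 FPKM in normal mice 1, 3 and 4 receiving BBR and at 1.55, 1.79 and 6.48 FPKM in colitis mice 2, 3 and 4 receiving BBR. The groups overlapped, and the difference averaged over arms was -0.46 log2 units (95% interval -1.44 to 0.51, limma adjusted p = 0.441). With BBR it was -0.998 in the mice numbered 1 to 3 and 1.02 in the mice numbered 4, and without BBR it was -0.44 and -0.91.

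Ccn2 was lower in colitis in both arms. It was at 7.99, 14.8 and 17.4 FPKM in normal mice 1, 3 and 4 and at 0.94, 5.63 and 7.41 FPKM in colitis mice 1, 2 and 4. With BBR the values were 23.0, 13.5 and 17.1 FPKM in normal mice 1, 3 and 4 and 2.76, 2.95 and 10.1 FPKM in colitis mice 2, 3 and 4. The groups of neither arm overlapped, although the highest colitis mouse of each, the mouse numbered 4, came near the lowest control. Averaged over arms Ccn2 fell by 1.91 log2 units (standard error of this fall 0.49, 95% interval -2.98 to -0.85), or 3.77-fold lower, and passed the limit (limma adjusted p = 0.0334, exact permutation within arms p = 0.005).

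The fall of Ccn2 stood against a table in which most genes were lower in colitis, the median difference over all 15315 genes being -0.36. The call was lost after centring on the median (-1.52 with limma adjusted p = 0.0589, where the median of all genes is 0.03) and after scaling all columns to the same total (limma adjusted p = 0.0849). Leaving out 1 mouse at a time gave differences of -2.21 to -1.47, and the call was kept only without colitis mouse 2, colitis mouse 4 or colitis mouse 4 receiving BBR, and lost without any of the other 9 mice. The difference was -2.38 in the mice numbered 1 to 3 and -0.99 in the mice numbered 4. Of the 50-base windows of Ccn2, 17.2% also occur in the gene model Gm15270.

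**Figure D2:**
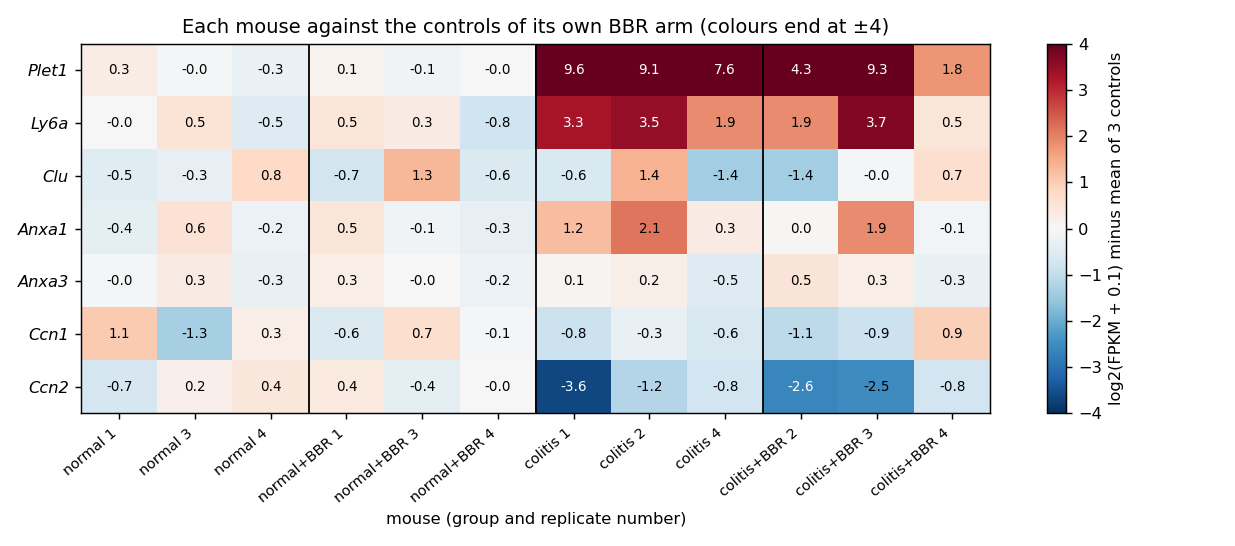
Each of the 7 members (rows) in each of the 12 mice (columns), as log2(FPKM + 0.1) minus the mean of the 3 control mice of the same BBR arm, with colours ending at ±4. Plet1, Ly6a and Anxa1 share the order of the colitis mice receiving BBR, with mouse 3 far above mice 2 and 4, and Ccn2 is below its controls in all 6 colitis mice.

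As a group, the members did not move one way in colitis. Without BBR, 0 of the 6 genes apart from Plet1 passed the limma adjusted limit and 3 (Ly6a, Anxa1 and Ccn2) had an unadjusted p under 0.05, beside 1.08% and 21.4% of all genes. Ly6a lay above its controls without overlap, as 7.1% of all genes did, and Ccn2 lay below them, as 22.2% did. With BBR, 0 of the 6 genes apart from Plet1 passed, against 0.0392% of all genes. Ly6a and Ccn2 had an unadjusted p under 0.05 there, as did 19.7% of all genes. A fall without overlap, as in Ccn2, was seen in 18% of all genes. Averaged over the arms, 2 of the 6 were called, Ly6a up and Ccn2 down, against 14.3% of all genes, with 2.85% of all genes called higher and 11.4% lower. Here too Ly6a, Anxa1 and Ccn2 had an unadjusted p under 0.05, beside 39% of all genes.

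BBR was compared with no BBR in colitis, in normal mice and in the interaction of both factors. In colitis mice 0 of the 6 members apart from Plet1 passed the limma adjusted limit or had an unadjusted p under 0.05, beside 0% and 6.39% of all 15315 genes. Plet1 was chosen by its level in these colitis mice, so its difference of -3.99 log2 units is given without a test, and the groups overlapped. Without colitis mouse 3 receiving BBR the difference was -6.08. In the mice numbered 1 to 3 it was -2.90 and in the mice numbered 4 it was -6.18.

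The other members differed by less between colitis with and without BBR, with Ly6a at -0.83 (95% interval -2.45 to 0.80), Anxa1 at -0.64 (-1.86 to 0.59), Ccn1 at -0.52, Clu at -0.29, Anxa3 at 0.20 and Ccn2 at 0.33 log2 units. Their 95% intervals all included 0. Of these 6, Clu and Ccn1 turned sign between the mice numbered 1 to 3 and the mice numbered 4, Clu with -1.35 and 1.82 and Ccn1 with -1.18 and 0.78. In normal mice BBR gave differences from -0.80 for Ccn1 to 0.45 for Ccn2, and 0 of the 6 members apart from Plet1 passed in limma or had an unadjusted p under 0.05, against 0% and 1.36% of all genes. The interaction, which asks whether the colitis difference depends on BBR, was -0.87 for Ly6a (95% interval -3.17 to 1.43) and lay between -0.62 and 0.27 for the other 5 tested genes, with 0 of 6 called or at an unadjusted p under 0.05 in limma, against 0% and 2.42% of all genes. The interaction of Clu was -1.79 in the mice numbered 1 to 3 and 3.46 in the mice numbered 4, that of Ccn1 -0.56 and 1.93, and that of Ccn2 -0.41 and 0.48. For Plet1 the arms differed by -3.63, which is given without a test.

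**Figure D3:**
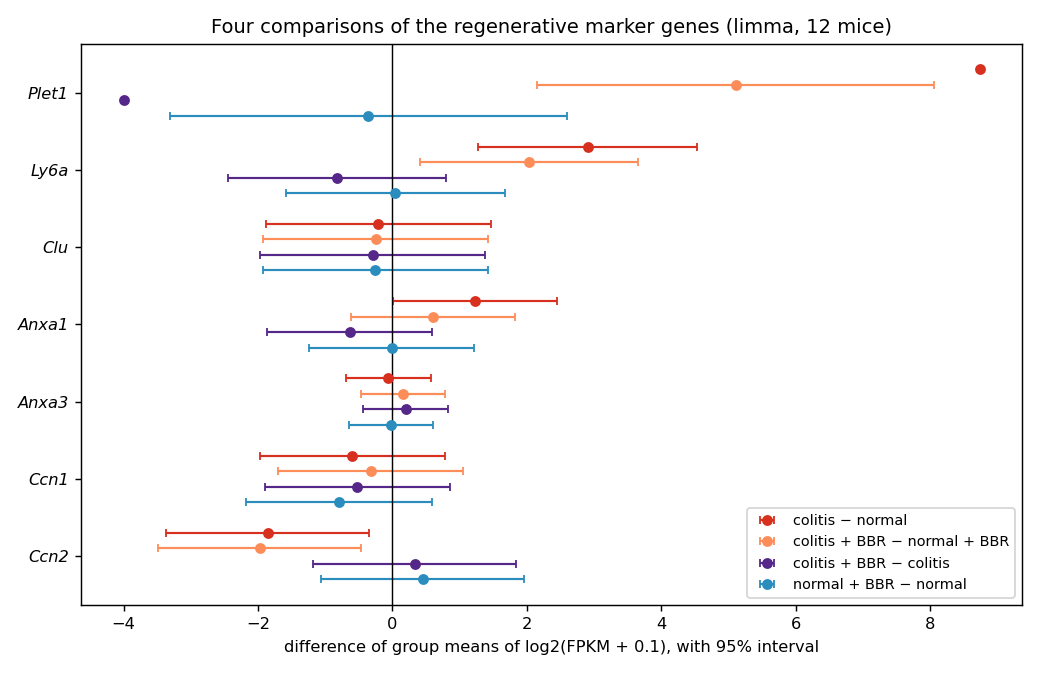
Differences between group means of log2(FPKM + 0.1) for the 7 members in 4 comparisons, with 95% intervals from limma. No interval is drawn for Plet1 in the 2 comparisons that include untreated colitis mice. The interval of Plet1 for colitis among mice receiving BBR is no test, since the gene was chosen for its rise in colitis. Ly6a is above 0 and Ccn2 below 0 in both colitis comparisons, and Anxa3 is near 0 in all 4.

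The levels of Plet1, Ly6a and Anxa1 changed together from mouse to mouse. Over the 12 mice, Pearson r of log2 values was 0.95 for Plet1 and Ly6a, 0.80 for Plet1 and Anxa1 and 0.89 for Ly6a and Anxa1, while Ccn2 ran the other way, at -0.81 with Plet1. Clu was near 0 with Plet1 (-0.072) and Ly6a (-0.017). The 12 mice fall into 4 groups and share the split in column totals, so the r values are a description.

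The genes most like each member were sought by the same r among 11942 genes with a mean of at least 1 FPKM. For Plet1 they were Nos2 (0.99), the inducible nitric oxide synthase, Sppl2a (0.98) and Dmgdh (0.98). Nos2 averaged 0.637 FPKM in normal and 140.9 FPKM in colitis mice. For Dmgdh these averages were 0.0167 and 3.03 FPKM. Without DSS, Nos2 and Dmgdh both averaged under 1 FPKM and passed this filter only through the mice with it. Their direction was therefore fixed, and their r with Plet1 is no test. For Ly6a they were Ly6c1 (0.99), a surface protein of the same family that shares reads with it, Wfdc18 (0.99) and Pglyrp1 (0.98), a bactericidal peptidoglycan-binding protein. Anxa1 was most like Sh3kbp1 (0.97), its relative Anxa2 (0.96) and Cast (0.96). Clu was most like Cd79b (0.93), a B cell receptor chain, Cd37 (0.85), a further B cell gene, and Pcsk1n (0.85). Ccn2 was most like Sgce, Rilpl1 and Cd109 (0.97, 0.96 and 0.96). Rilpl1 and Cd109 averaged under 1 FPKM with DSS and passed only through the mice without it, so their direction was fixed too. Anxa3 was closest to S100a13 (0.95), Pgm2 (0.95) and Mt4 (0.94), and Ccn1 to Phf23 (0.90), Cdkn2d (0.89) and Flot1 (0.85).

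Companions of the programme are other genes linked to fetal-like or regenerating epithelium. The list was chosen with earlier results of these data known, so its counts are a description. Of 19 tested, 17 were higher in colitis without BBR and 2 passed the limma limit, beside 1.08% of all genes. Their median was 1.56 against -0.32 over all genes. With BBR 14 were higher, 5 lower and 0 passed, with a median of 0.65 against -0.40. Averaged over arms, 17 were higher, 7 of them past the limma limit and none lower past it, beside 2.85% of all genes called higher. The averaged median was 0.98 against -0.36 over all genes, of which 21.5% were higher. Ly6c1 rose by 3.39 log2 units (standard error 0.67, limma adjusted p = 0.0175) and was at 41.2 to 89.8 FPKM in normal and 425.6 to 2487 FPKM in colitis mice. Msln, the surface protein mesothelin, rose by 2.56 (limma adjusted p = 0.0394), and Il33, an alarm cytokine of barrier cells, by 1.70 (limma adjusted p = 0.0478). Sprr1a, a cornified envelope protein, differed by 2.21 without passing (standard error 1.03, limma adjusted p = 0.134). The number of called companions fell to 2 after scaling to equal totals and to 3 after centring on epithelial genes. In colitis mice receiving BBR, 16 of the 19 were lower than in colitis mice, with a median of -0.91 and none past the limit in limma, and 38% of all genes were higher in that comparison. Markers of other cells differed there too, with 0 called. All 10 macrophage and all 10 neutrophil markers were lower (medians -1.14 and -2.11), as were 8 of 10 epithelial ones (-0.13). All 10 smooth muscle markers were higher (1.29). The part of these cells in the lower companions was not tested.

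The targets of YAP, as a list, were mostly lower, as was the table as a whole. Of 22 tested targets, Ccn1 and Ccn2 included, 19 were lower in colitis averaged over arms, 6 of them past the limma limit and none higher past it, with a median of -0.57. Of all genes 78.5% were lower and 11.4% were called lower. Igfbp3, an insulin-like growth factor binding protein, fell by 2.56 (standard error 0.25, limma adjusted p = 0.000917), from 13.3 to 19.9 FPKM in normal mice to 1.91 to 3.71 FPKM in colitis mice. Foxf2, a transcription factor of gut fibroblasts, fell by 2.13 (limma adjusted p = 0.0356). The median was -0.24 with quantile normalization, with 5 called. Counts of calls ran from 1 with equal column totals to 12 with a block for the mice numbered 4, where 29.7% of all genes were called lower.

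Of 20 tested Hippo pathway components, 18 were lower and 2 were past the limma limit, both lower, with a median of -0.54, beside 78.5% of all genes lower and 11.4% called lower. With quantile normalization 0 were past it and the median was -0.19, while 13 were past it with a block for the mice numbered 4, as were 29.7% of all genes. Vgll4, which competes with YAP for TEAD, differed by -1.26 (limma adjusted p = 0.0574), Tead2 by -1.13 (0.0613), and Wwtr1, the YAP relative TAZ, by -1.10 (0.157).

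Relatives and partners of the members gave mixed counts in the same averaged comparison, in which 2.85% of all genes were called higher and 11.4% lower. Of 11 tested annexins, 6 were higher and 5 lower, and 2 passed, both lower, namely Anxa13 (-1.57, limma adjusted p = 0.0334), found on gut epithelium, and Anxa6 (-1.11, limma adjusted p = 0.0364). Of 6 tested receptors and S100 partners of annexin 1, Fpr1 had a mean under 0.1 FPKM without DSS and passed the filter only through the mice with it, so its direction was fixed. The other 5 were higher, and Fpr2, a formyl peptide receptor, passed (2.28, limma adjusted p = 0.0155). Of the 5 tested CCN genes 4 were lower (3 with quantile normalization), with Ccn2 alone past the limit, and of 3 tested clusterin receptors 2 were higher and 0 passed, with Trem2 at 0.68 (limma adjusted p = 0.103, unadjusted p under 0.05 in 1 of the 3).

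**Figure D4:**
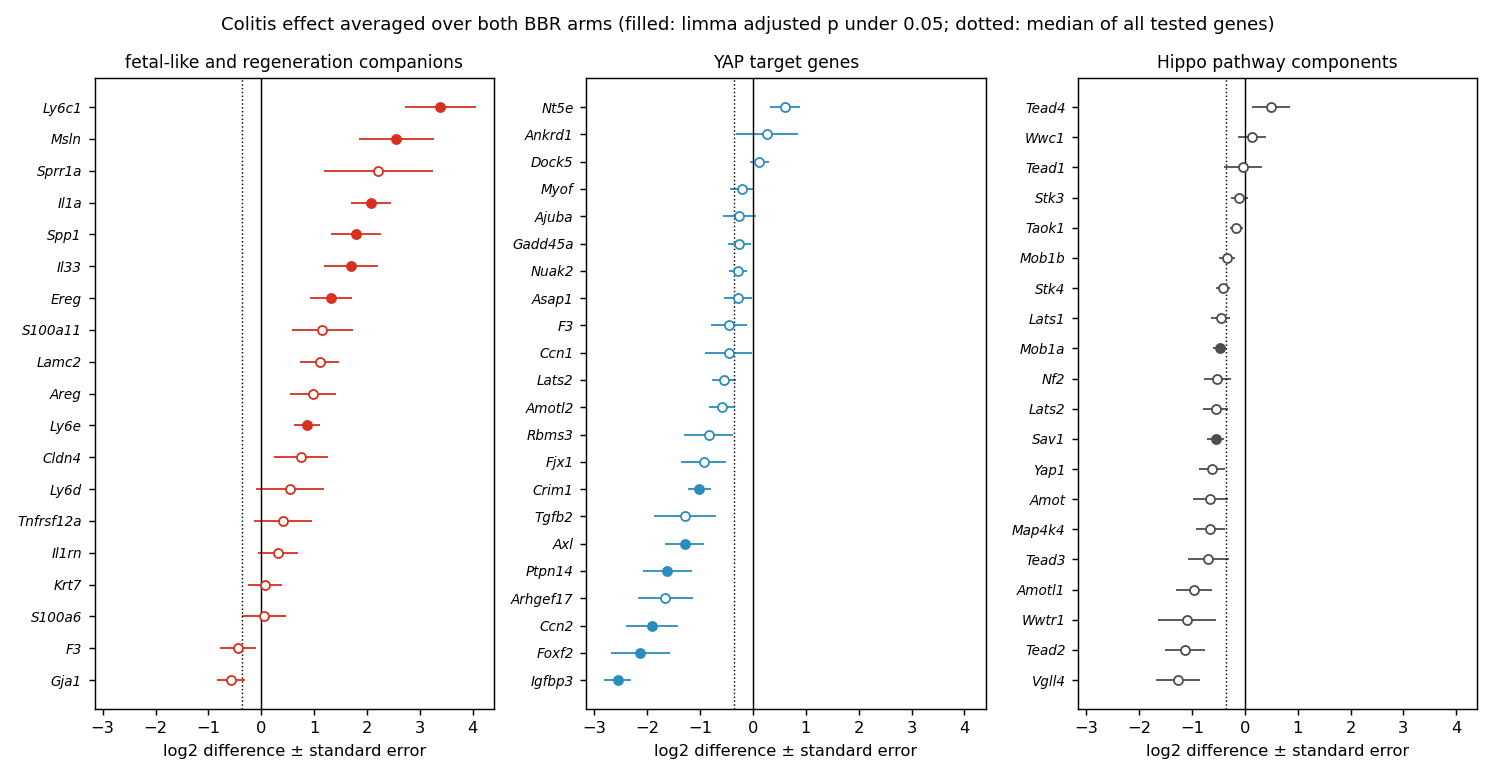
Difference in colitis averaged over both BBR arms (log2 units, with standard error) for each tested gene of 3 lists, filled where limma's adjusted p is under 0.05, with the median of all genes, -0.36, dotted. Companion genes lie mostly right of 0 and YAP targets mostly left of it, down to Igfbp3 at -2.56.

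Whole tissue was sequenced, so fewer cells of a type and less RNA per cell cannot be told apart, and the marker levels of several cell types differed with DSS. The 10 epithelial markers, Epcam, Cdh1 and Krt8 among them, were all well expressed, with summed levels of 9832 to 13703 FPKM in normal, 7967 to 12675 in normal with BBR, 9537 to 13255 in colitis and 7162 to 10847 FPKM in colitis with BBR. Of these 10 genes 0 passed the limma limit averaged over arms, beside 14.3% of all genes, and 1 had an unadjusted p under 0.05, beside 39%. Their median was -0.0058 (0.39 after centring on the median of all genes). Without BBR, Krt20 differed most among them, at 0.66 (limma adjusted p = 0.319). Squamous markers, which would come from the anal end, summed to 1.82 to 3.16 FPKM in normal, 1.17 to 2.39 in normal with BBR, 2.49 to 8.59 in colitis and 0.79 to 5.3 FPKM in colitis with BBR. Krt5, Krt4 and Trp63 were under the filter, and Krt6a and Dsg3 passed it only through the mice with DSS, so their direction was fixed. Of the other 3, 1 was higher averaged over arms, Krt13 at 1.33 (limma adjusted p = 0.108), with an unadjusted p under 0.05 as in 39% of all genes, and 0 passed in limma. The part of squamous cells in the levels of Plet1 and Ly6a was not tested. After centring on the epithelial markers the rise of Ly6a was 2.47 (limma adjusted p = 0.0129) and the fall of Ccn2 was -1.92 (limma adjusted p = 0.0470).

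Ccn2 and the YAP targets are also expressed in muscle, vessels and fibroblasts, whose markers are counted here beside 78.5% of all genes lower and 11.4% called lower averaged over arms. Smooth muscle markers summed to 1674 to 3164 FPKM in normal and 2350 to 5014 FPKM in normal with BBR, against 74.0 to 679 FPKM in colitis and 484 to 3541 FPKM in colitis with BBR. All 10 were lower averaged over arms and 7 passed, with Myh11 at -2.86 (limma adjusted p = 0.0381), and with quantile normalization all 10 were lower and 0 passed. All 10 endothelial markers were lower and 4 passed, with sums of 30.8 to 37.0 FPKM in both groups without DSS and 10.6 to 31.8 FPKM in both with it. All 10 fibroblast markers were lower and 4 passed, with sums of 302 to 654 FPKM without and 184 to 731 FPKM with DSS. The part of these shifts in the fall of Ccn2 was not tested.

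Ly6a is also expressed on blood and vessel cells, and for their markers the shares of all genes are 21.5% higher and 2.85% called higher averaged over arms. Of 10 neutrophil markers, Ly6g, a relative of Ly6a, was high without DSS too, at 259.5 to 792.8 FPKM, against 488.2 to 3710 FPKM with it. The other 9, summed apart from Ly6g after its values were seen, were at 0.57 to 2.49 FPKM in normal, 1.02 to 2.78 in normal with BBR, 49.3 to 505.2 in colitis and 3.08 to 219.8 FPKM in colitis with BBR, with S100a8 listed at 0 in all 6 mice without DSS. S100a8, Retnlg, Mmp8 and Trem1 passed the filter only through the mice with DSS, so their direction was fixed. The sums include these genes, so the gap in the sums between mice without and with DSS is no test. The other 6 were all higher averaged over arms and 4 of them passed, Ly6g not among them (limma adjusted p = 0.0600). Macrophage markers summed to 195 to 257, 186 to 289, 309 to 932 and 161 to 316 FPKM in the same order, with 7 of 10 higher and 2 called averaged over arms. The arms differed. Without BBR 10 of 10 were higher with colitis (median 1.02 log2 units), and with BBR 4 were higher and 6 lower (median -0.27). Within each single arm 0 were called. Of 9 T cell markers 3 and of 8 B cell markers 4 were higher, or 8 and 6 with quantile normalization, and 0 passed in either list in limma. The part of these cells in the levels of Plet1, Ly6a and Anxa1 was not tested.

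**Figure D5:**
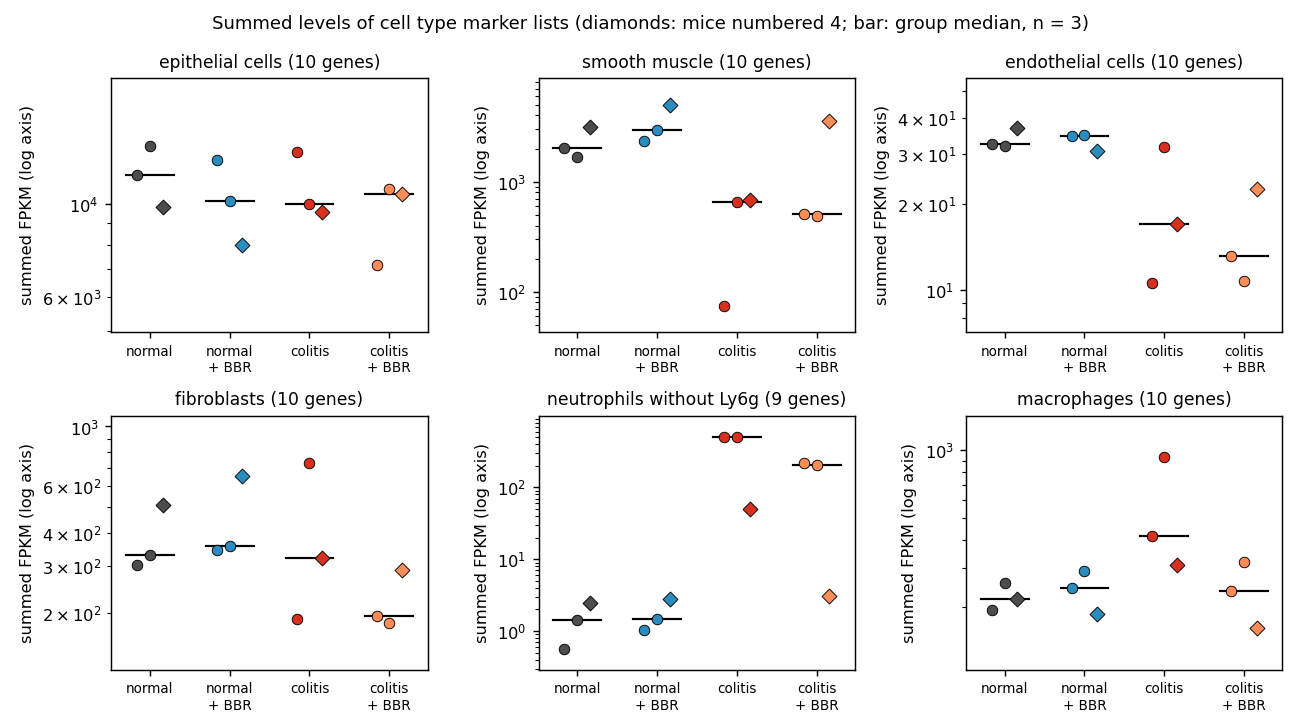
Summed FPKM (log axis) of 6 lists of marker genes, 10 each but 9 for neutrophils, where Ly6g is left out, in each mouse by group, with diamonds for the mice numbered 4 and bars for the group median. Epithelial sums overlap in all groups, and smooth muscle sums of untreated colitis mice lie below all normal mice. Neutrophil sums are at most 2.78 FPKM without DSS and at least 3.08 FPKM with it. They include 4 genes whose direction was fixed by the filter, so this gap is no test.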

How the data were processed

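Per the labels and the study's methods, rectal RNA of 12 mice was sequenced. The authors filtered the reads, aligned them with Bowtie2 2.2.5 and estimated expression with RSEM 1.2.12 (build mm9 in the submitters' processing notes). The deposited values, 1 per gene and mouse, are read here as FPKM from their size, and TPM is not excluded. They hold no read counts. The depth was estimated from the steps of 1208 single-transcript genes, where 1 read was worth 49 to 77 FPKM times bases.

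From the deposited FPKM, log2(FPKM + 0.1) was taken for the 15315 of 17734 genes with a mean of at least 0.1. R 4.3.3 with limma 3.58.1 fitted group means over all mice, with a trend on expression. Single genes also had two-sided exact permutation tests. The members and lists were chosen with earlier results of these data known. Named genes are the members, up to 4 per list with the largest difference and a mean of at least 1, and the 3 genes most like each member. Shared 50-base windows were counted in GENCODE M21 transcripts. Groups and replicate numbers came from the labels.

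Deviations from the group mean were compared between same-numbered mice. Their r was 0.109 to 0.657 in the 3 pairs of normal mice with and without BBR. It was 0.137 to 0.405 in the 4 pairs of colitis and control mice within an arm. In the 2 pairs of colitis mice with and without BBR it was 0.078 and 0.751. The mean r was 0.497 for the mice numbered 4 and 0.205 for the others, against -0.103 for all pairs of different number. These include pairs of a mouse numbered 4 with another mouse, which were mostly negative. Among the mice numbered 1 to 3, pairs of different number had r of -0.150 to 0.456. A likeness by number was therefore seen only for the mice numbered 4. The replicate block is an alternative. The others were the pseudocount, the filter, other scalings, a block for the mice numbered 4, those numbered 1 to 3 alone and leaving out each mouse. Python 3.11.15, pandas 2.3.3, SciPy 1.17.1 and matplotlib 3.10.9 were used.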

Additional observations from a re-analysis of the deposited data

How the results depend on the processing

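The count of members past the limit in colitis against normal was 0, and became 1, Ly6a, with quantile normalization, centring on epithelial genes, the compared groups alone, the replicate block (3.15, limma adjusted p = 0.0152), a block for mice 4, a fit of only the other 8 mice and equal column totals, the last chosen after seeing the data. In colitis with BBR against normal with BBR the count was 1, Ly6a, with the block for the mice numbered 4. It was 2, Plet1 and Ly6a, in the mice numbered 1 to 3 alone, and 0 to 3 when 1 mouse was left out. The 3 were Plet1, Ly6a and Ccn2, without colitis mouse 4 receiving BBR. Plet1 in these counts is no test, since it was chosen for its rise in colitis. Averaged over arms the count was 1 after median centring and after equal totals, and 0 to 3 without 1 mouse. In colitis with BBR against colitis it was 0 to 1 without 1 mouse, the 1 being Plet1 without mouse 3 of the BBR group, which is no test since Plet1 was chosen by these colitis mice. The replicate block changed no other call of a member.

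Differences near 0 changed sign. In colitis against normal, Clu was 0.13 and Anxa3 0.27 after median centring, and 0.79 and 0.023 in the mice numbered 1 to 3. With BBR in both groups, Clu was 0.13 and Ccn1 0.21 with quantile normalization, and 0.20 and 0.13 after median centring. Averaged over arms, Clu was 0.036 with quantile normalization and 0.17 after median centring, and Anxa3 was -0.037 with the replicate block and -0.0072 with equal totals. For BBR in normal mice, Anxa1 was 0.023 with quantile normalization and with median centring, 0.28 with epithelial centring, 0.044 in the mice numbered 1 to 3 and 0.0034 with equal totals, Anxa3 was 0.011 with median and 0.26 with epithelial centring, and Clu was 0.035 with epithelial centring and 0.44 in the mice numbered 1 to 3. In the interaction, Clu was 0.19 with quantile normalization and 0.075 with median centring, and Ccn1 -0.56 in the mice numbered 1 to 3. The cause was not tested.

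Leaving out 1 mouse also turned signs, within these ranges. In colitis against normal they were -1.005 to 0.38 for Clu and -0.22 to 0.17 for Anxa3. With BBR in both groups they were -0.72 to 0.41 for Clu, -0.034 to 0.96 for Anxa1, -0.017 to 0.39 for Anxa3 and -0.96 to 0.040 for Ccn1. Averaged over arms they were -0.63 to 0.10 for Clu and -0.040 to 0.16 for Anxa3. In colitis with BBR against colitis they were -0.89 to 0.50 for Clu, -0.033 to 0.42 for Anxa3 and -0.55 to 0.87 for Ccn2. For BBR in normal mice they were -0.21 to 0.45 for Ly6a, -0.91 to 0.15 for Clu, -0.25 to 0.28 for Anxa1 and -0.17 to 0.14 for Anxa3. In the interaction they were -0.63 to 0.76 for Clu, -0.0085 to 0.45 for Anxa3, -0.36 to 0.94 for Ccn1 and -1.003 to 0.42 for Ccn2. Ly6a and Ccn2 in the 3 comparisons of colitis with its controls kept their direction under all alternatives run.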
